A study of Mus musculus with 3 samples.

Results

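The shelterin and telomerase genes examined here are 10 genes of telomere maintenance: 7 that encode shelterin (Terf1, Terf2, Terf2ip, Tinf2, Acd, Pot1a and Pot1b), the telomere helicase gene Rtel1, and the telomerase genes Tert and Dkc1. They were chosen by name, as genes of the structures that ATRX and DAXX are known to guard, and all 10 were found among the 24006 gene symbols in the tables. Levels were measured by sequencing of polyadenylated RNA from mouse embryonic stem cells (ESCs), pluripotent cells of the early embryo that divide without limit in culture. A DAXX knockout (labelled DAXX-/-), an ATRX knockout (ATRX-/-) and a wildtype clone were sequenced, with 1 library from each. All of them, the wildtype included, were described as male and isogenic, of C57BL/6x129sV background, and had been grown with serum and LIF, first on irradiated feeder cells and later on gelatin without them. The knockouts had been made by CRISPR targeting. Each genotype is thus 1 clone, and a difference between libraries cannot be told apart from a difference between clones.

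Telomeres end mammalian chromosomes in tandem TTAGGG repeats that finish in a single-stranded overhang. Shelterin coats them: TRF1 and TRF2 bind the double-stranded repeats, RAP1 rides on TRF2, TIN2 joins TRF1 and TRF2 to TPP1, and TPP1 carries POT1, which binds the overhang. Telomerase adds repeats from an RNA template with the reverse transcriptase TERT, and dyskerin, the product of Dkc1, stabilises that RNA. ESCs keep telomerase active. ATRX and DAXX place the histone variant H3.3 at telomeres, and loss of either protein is known from tumours that keep their telomeres by recombination, without telomerase.

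The libraries held 11224100 reads on transcripts in DAXX knockout cells, 13988376 in ATRX knockout cells and 13981915 in wildtype. Levels are given as CPM, the count of a gene in every 1000000 reads of effective library size. Atrx was at 327 CPM in DAXX knockout cells, 130 in ATRX knockout cells and 316 in wildtype, and Daxx at 57.0, 70.2 and 77.5 CPM in the same order, so each targeted gene was lowest in the library named after it. The 8 ESC markers summed to 5727, 5812 and 5354 CPM in the DAXX knockout, the ATRX knockout and wildtype, with all 8 above 1 CPM in every library. Markers of other cells differed between the libraries. The 8 fibroblast markers summed to 7.51, 13.1 and 28.2 CPM, the 6 primitive endoderm markers to 2.29, 12.9 and 37.1 CPM and the 5 trophoblast markers to 3.66, 13.4 and 22.04 CPM. Most of the trophoblast sum came from Krt19, at 1.37, 5.705 and 15.1 CPM, and Esx1, at 1.92, 6.79 and 6.75 CPM. Cdx2 had 3, 13 and 0 reads in the same order, and Elf5 and Gata3 at most 3 reads in any library. Of the defining genes Col3a1, Postn, Lum, Sox17 and Gata3 were at 0 reads in the DAXX knockout, Col3a1, Postn, Lum, Elf5 and Gata3 in the ATRX knockout, and Lum, Cdx2 and Elf5 in wildtype. The part of such cells in the values below was not tested. In bulk RNA, fewer cells that express a gene and less of its RNA in each cell cannot be told apart.

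With 1 library for each genotype no test of genotype was possible. Each log2 fold is followed in parentheses by its 95% interval, which covers counting error only, and a gene passed as higher or lower if no value of this interval was within 2-fold of no change. None of the 10 genes was called in any comparison. In the DAXX knockout against wildtype 0 of 10 passed, where 2.04% of all 13151 genes tested did, 0.487% as higher and 1.55% as lower. In the ATRX knockout against wildtype 0 of 10 passed, with 1.84% of 13230 genes, 0.695% as higher and 1.15% as lower. In the ATRX knockout against the DAXX knockout 0 of 10 passed, with 1.13% of 12991 genes, 0.77% as higher and 0.362% as lower. Of their 25 single transcripts, each with at least 20 reads in one of the libraries compared, 0 passed in these comparisons, where 1.26%, 1.28% and 0.663% of all transcripts did. At a limit of 1.5-fold the count was again 0 of 10 in each comparison, where 4.53%, 5.29% and 3.99% of all genes passed. All 10 genes passed the filter of 1 CPM in every comparison, so none is missing from these counts.

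The intervals also show how large a difference between these libraries counting error leaves room for. In the DAXX knockout against wildtype, all 10 intervals lay wholly inside 1.5-fold, as did 61.8% of genes tested. With the ATRX knockout set against wildtype 8 of 10 did, with Tinf2 and Pot1b the exceptions, where 59.7% of all genes did. In the ATRX knockout against the DAXX knockout 8 of 10 did, with Pot1b and Tert the exceptions, and 60.5% of all genes. An interval narrows with the number of reads, so these shares follow the depth of each gene as well as its difference.

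**Figure D1:**
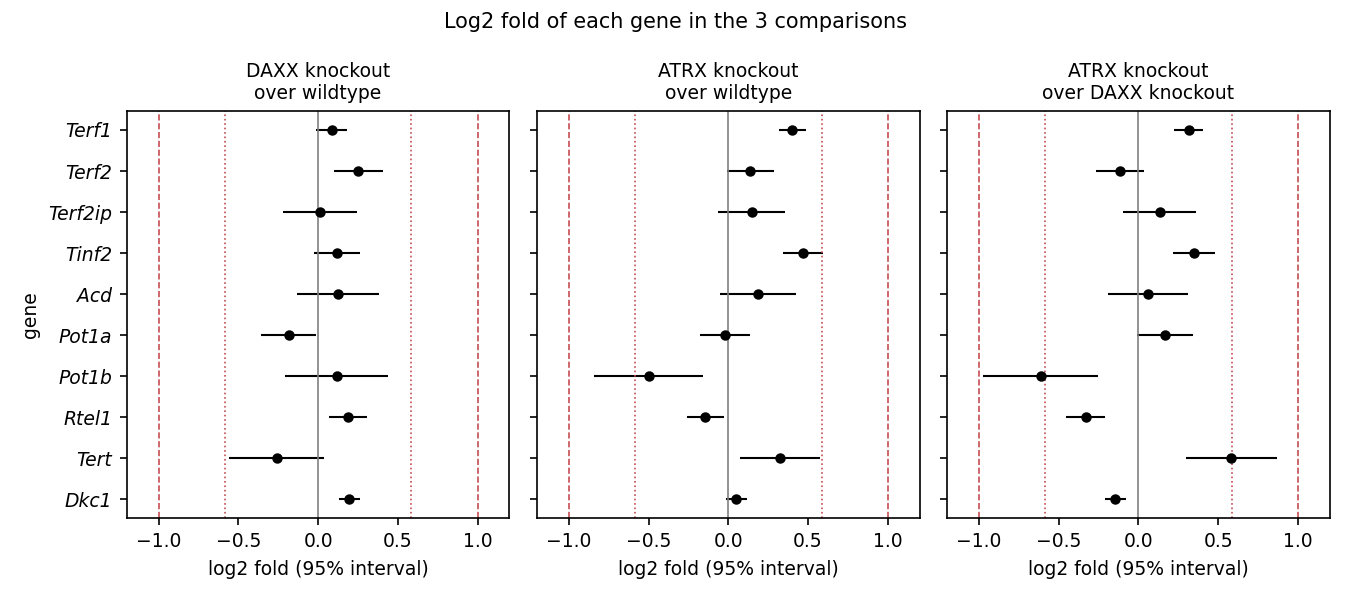
Log2 fold of each gene (points) with its 95% counting interval (bars) in the DAXX knockout over wildtype, the ATRX knockout over wildtype and the ATRX knockout over the DAXX knockout. Dashed lines mark 2-fold and dotted lines 1.5-fold. No interval passes the dotted or dashed lines as a whole, and Pot1b and Tert reach farthest from 0.

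Smaller differences were common in both directions. In the DAXX knockout against wildtype, 3 of 10 intervals lay above no change (Terf2, Rtel1 and Dkc1) and 1 below (Pot1a), where 23.7% of all genes lay above and 17.1% below. In the ATRX knockout against wildtype, 3 lay above (Terf1, Tinf2 and Tert) and 2 below (Pot1b and Rtel1), with 25.4% and 21.3% of all genes. Between the knockouts 3 lay above (Terf1, Tinf2 and Tert) and 3 below (Pot1b, Rtel1 and Dkc1), with 20.7% and 20.9% of all genes. In all, 4, 5 and 6 of the 10 intervals left out no change, beside 40.8%, 46.7% and 41.6% of all genes. Over the 10 genes the median log2 fold was 0.12 for DAXX knockout over wildtype, 0.14 for ATRX knockout over wildtype and 0.10 for ATRX over DAXX knockout, beside medians over all genes tested of 0.02, 0.02 and 0.00. With total counts the medians of the 10 genes over wildtype were 0.02 with DAXX lost and 0.07 with ATRX lost, beside -0.08 and -0.05 for all genes. The comparisons with wildtype share 1 library, and a shared wildtype value moves both folds of a gene together.

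**Figure D2:**
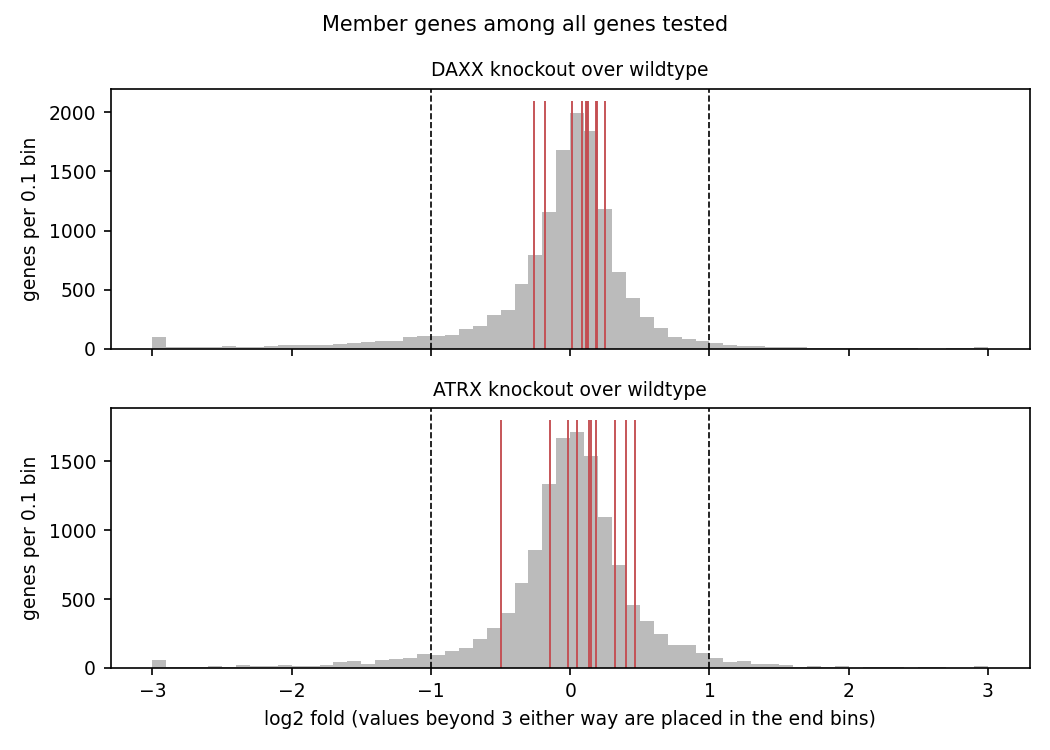
Log2 folds over wildtype of all genes tested (grey bars, number of genes per bin of 0.1) with the 10 shelterin and telomerase genes drawn as red lines, in the DAXX knockout (top) and the ATRX knockout (bottom). Dashed lines mark 2-fold. The red lines fall between -0.26 and 0.25 in the DAXX knockout and between -0.50 and 0.47 in the ATRX knockout.

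Per length, the 10 genes spanned a wide range of levels and kept 1 order. Levels were computed as CPM per kilobase of transcript, summed over the transcripts of a gene. From high to low the order was Dkc1, Terf1, Tinf2, Terf2, Rtel1, Pot1a, Acd, Terf2ip, Tert and Pot1b, and each gene held the same rank in all 3 libraries. Dkc1 was at 146 CPM per kilobase in DAXX knockout cells, 133 in ATRX knockout cells and 128 in wildtype, above 96.3%, 96.2% and 96.3% of the genes with a read in that library. Pot1b was at 3.82, 2.50 and 3.52 CPM per kilobase, above 43.7%, 39.2% and 45.6% of them. Some neighbours in the order did not differ beyond their counting intervals. These were Terf2 and Rtel1 in the DAXX knockout and wildtype, Tert and Pot1b in the DAXX knockout, Pot1a and Acd in both knockouts, and Rtel1 and Pot1a, and Terf2ip and Tert, in the ATRX knockout. The lengths are those of the deposited tables, and for Terf2ip, Tinf2, Acd, Pot1b and Tert they differ from GENCODE M21. Acd is 1425 bases long in the tables and 3154 in M21, and a level per length scales with the length used. Terf1 was at 76.3, 94.9 and 71.3 CPM per kilobase in the DAXX knockout, the ATRX knockout and wildtype, and Tert at 4.17, 6.24 and 4.99.

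**Figure D3:**
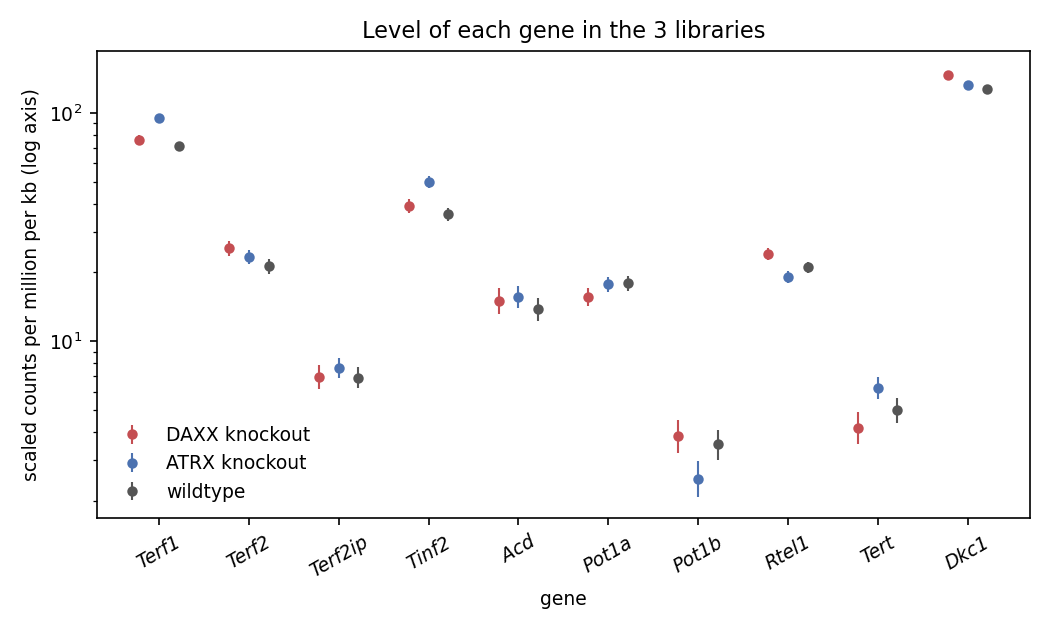
Level of each gene in the DAXX knockout, the ATRX knockout and wildtype, in CPM per kilobase on a log axis. Points are the 3 libraries and bars their 95% Poisson counting intervals. Dkc1 and Terf1 stand highest and Tert and Pot1b lowest in every library.

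Terf1 encodes TRF1, which binds double-stranded telomere repeats and helps replication forks pass through them. The gene lies on chromosome 1 (plus strand), bases 15805646 to 15844052 (GRCm38, GENCODE M21). It had 1572 reads in DAXX knockout cells, 2479 in ATRX knockout cells and 1968 in wildtype, or 144, 179 and 136 CPM. The ATRX knockout was thus the highest of the 3 libraries. The log2 fold over wildtype was 0.09 (-0.01 to 0.18) in DAXX knockout cells and 0.40 (0.32 to 0.49) in ATRX knockout cells, and between the knockouts it was 0.31 (0.22 to 0.41). A higher fold over wildtype was found for 13.6% of the genes tested in the ATRX knockout. The 2 transcripts counted, both protein coding, had log2 folds over wildtype there of 0.47 (0.34 to 0.59) for Terf1-201 and 0.35 (0.23 to 0.46) for Terf1-203. Windows of 50 bases that occur in no other transcript made up 3.13% of Terf1-201 and 32.4% of Terf1-203, so the 2 folds are not independent. When libraries were scaled by total counts the small value in the DAXX knockout turned to -0.01 (-0.10 to 0.09).

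Terf2 encodes TRF2, which folds the chromosome end into a protected loop in many cell types and is largely dispensable for end protection in mouse ESCs. Its locus is chromosome 8 (minus strand), bases 107069400 to 107096547. It had 664 reads in DAXX knockout cells, 778 in ATRX knockout cells and 741 in wildtype, or 60.8, 56.2 and 51.05 CPM. Both knockouts stood above wildtype, by a log2 fold of 0.25 (0.10 to 0.41) in DAXX knockout cells and 0.14 (-0.01 to 0.29) in ATRX knockout cells, where the interval takes in no change. The value for the DAXX knockout was 0.16 (0.01 to 0.31) with total counts, and 0.13 (-0.17 to 0.43), which takes in no change, with the most abundant transcript alone. For the ATRX knockout over wildtype the interval left out no change with thinned counts, at 0.18 (0.02 to 0.34). Between the knockouts the log2 fold was -0.11 (-0.27 to 0.04). Reads of Terf1 made up 70.3% of the reads of both TRF genes in the DAXX knockout (68.4% to 72.2%), 76.1% in the ATRX knockout (74.6% to 77.6%) and 72.6% in wildtype (70.9% to 74.3%, exact binomial intervals). The share in the ATRX knockout lay outside the intervals of both other libraries. How often the share of other gene pairs differs by as much between these libraries was not tested. Of the 5 transcripts of Terf2, the folds over wildtype ran from 0.06 to 0.49 in DAXX knockout cells and from 0.04 to 0.34 in ATRX knockout cells. From 0% (Terf2-202) to 45.2% (Terf2-203) of the windows of each were its own, so these folds are not independent.

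Terf2ip encodes RAP1, which binds TRF2 and holds back recombination at telomeres. Its locus is chromosome 8 (plus strand), bases 112011398 to 112020528. It had 274, 381 and 361 reads in the DAXX knockout, the ATRX knockout and wildtype, or 25.1, 27.5 and 24.9 CPM. The 3 libraries lay close together. Its log2 fold over wildtype was 0.01 (-0.22 to 0.24) in DAXX knockout cells and 0.15 (-0.07 to 0.36) in ATRX knockout cells, and 0.13 (-0.09 to 0.36) between the knockouts. The value in the DAXX knockout turned to -0.08 with total counts and to -0.01 with counts thinned to the smallest library.

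Tinf2 encodes TIN2, the bridge that holds TRF1, TRF2 and TPP1 together. Its locus is chromosome 14 (minus strand), bases 55674689 to 55681820. It had 741 reads in DAXX knockout cells, 1196 in ATRX knockout cells and 907 in wildtype, or 67.8, 86.4 and 62.5 CPM. The ATRX knockout was the highest library, as it was for Terf1. The log2 fold over wildtype was 0.12 (-0.02 to 0.26) in DAXX knockout cells and 0.47 (0.34 to 0.59) in ATRX knockout cells, and 0.35 (0.21 to 0.48) between the knockouts. Over wildtype, 11.1% of the genes tested had a higher fold in the ATRX knockout. The median of the 478 tested genes of chromosome 14 was 0.05 in that comparison. In M21 the exons of Tinf2 share 1137 bases with those of Gmpr2 on the other strand, and whether the counting used strand is not known here. Gmpr2 had 411, 544 and 525 reads in the DAXX knockout, the ATRX knockout and wildtype, and its log2 fold in the ATRX knockout was 0.12 (-0.06 to 0.30). The Tinf2 transcript of the tables is 1736 bases long against 2956 in M21. When the M21 sequence was cut to that length from its 5′ end, 3.91% of its windows of 50 bases also occurred in Gmpr2, against 35.9% at full length.

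Acd encodes TPP1, which tethers POT1 and recruits telomerase. Its locus is chromosome 8 (minus strand), bases 105695860 to 105701102. It had 234, 309 and 285 reads in the DAXX knockout, the ATRX knockout and wildtype, or 21.4, 22.3 and 19.6 CPM. Both log2 folds over wildtype were small, with intervals that take in no change: 0.13 (-0.13 to 0.38) in DAXX knockout cells and 0.18 (-0.05 to 0.42) in ATRX knockout cells. The ATRX knockout over the DAXX knockout gave 0.06 (-0.19 to 0.31). In M21 its exons share 566 bases with Rltpr on the other strand, at 122, 196 and 180 reads in the same order of libraries. The deposited Acd transcript is shorter than that of M21. When the M21 sequence was cut to the deposited length from its 5′ end, 0% of its windows of 50 bases also occurred in another gene. At full length 10.95% did, all in Rltpr.

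Mice carry a pair of POT1 genes where humans have 1 gene. In mouse cells POT1a restrains the damage kinase ATR at telomeres, and POT1b controls trimming of the strand opposite the overhang. Counts can separate the paralogs only if their sequences differ, so the first 90 coding bases of each are shown, from GENCODE M21 transcripts (GRCm38), with capitals for the 18 bases that differ between them.
Pot1a-203 coding start, chromosome 6: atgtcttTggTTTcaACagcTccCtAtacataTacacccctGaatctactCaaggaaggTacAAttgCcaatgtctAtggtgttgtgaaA
Pot1b-201 coding start, chromosome 17: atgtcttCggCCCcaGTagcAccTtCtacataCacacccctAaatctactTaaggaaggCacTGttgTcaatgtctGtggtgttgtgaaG
Over the 1916 aligned coding positions 79.02% were identical, and the longest identical run was 41 bases. None of the windows of 50 bases of either gene occurred in a transcript of another gene in the tables.

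Pot1a, on chromosome 6 (minus strand), bases 25743737 to 25809246, had 465 reads in DAXX knockout cells, 661 in ATRX knockout cells and 702 in wildtype, or 42.6, 47.7 and 48.4 CPM. The DAXX knockout was the lowest library. Its log2 fold over wildtype was -0.18 (-0.36 to -0.01) there and -0.02 (-0.17 to 0.14) in the ATRX knockout, with 0.16 (-0.01 to 0.34) between the knockouts. Between the knockouts the interval left out no change under 2 alternatives. These were total counts, at 0.19 (0.02 to 0.36), and protein coding transcripts alone, at 0.22 (0.02 to 0.41). The value in the DAXX knockout over wildtype was -0.28 (-0.45 to -0.11) with total counts. With the most abundant transcript alone it was -0.21 (-0.47 to 0.05), which takes in no change. Of its 4 transcripts, Pot1a-201 stood farthest from wildtype in the DAXX knockout, with 45 reads there, 101 in the ATRX knockout and 96 in wildtype. That gave a log2 fold of -0.68 (-1.23 to -0.16) in the DAXX knockout over wildtype and 0.14 (-0.28 to 0.56) in the ATRX knockout over wildtype. In the DAXX knockout over wildtype the intervals of Pot1a-202, Pot1a-203 and Pot1a-209 took in no change. Windows that occur in no other transcript made up 47.2% of Pot1a-201, so part of its count rests on reads that other Pot1a transcripts could have taken.

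Pot1b, on chromosome 17 (minus strand), bases 55651951 to 55712628, had the lowest level of the 10 genes in every library. As a point estimate it also had the largest difference. Pot1b and Tert had the fewest reads of the 10 genes, and their intervals were the widest. Pot1b had 146 reads in DAXX knockout cells, 121 in ATRX knockout cells and 179 in wildtype, or 13.4, 8.74 and 12.3 CPM. Here the ATRX knockout was the lowest library. The log2 fold in the ATRX knockout was -0.50 (-0.84 to -0.16) over wildtype and -0.61 (-0.97 to -0.26) over the DAXX knockout, while the DAXX knockout over wildtype gave 0.12 (-0.21 to 0.44). Of the genes tested 11.1% had a lower fold in the ATRX knockout over wildtype, and 5.47% in the ATRX knockout over the DAXX knockout. Reads of Pot1b were 23.9% of the reads of both POT1 genes in the DAXX knockout (20.6% to 27.5%), 15.5% in the ATRX knockout (13.01% to 18.2%) and 20.3% in wildtype (17.7% to 23.1%). The intervals of the 2 knockouts did not overlap, and each overlapped that of wildtype. As for the TRF genes, no background of other gene pairs was computed for such shares.

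Summed over the 7 genes, shelterin stood at 182 CPM per kilobase in DAXX knockout cells, 212 in ATRX knockout cells and 171 in wildtype. Terf1 gave 41.8%, 44.9% and 41.8% of that sum and Tinf2 21.4%, 23.5% and 21.1%, so both took their largest share in the ATRX knockout. Pot1b gave 2.10%, 1.18% and 2.06%, the smallest share of the 7 in each library. Terf2 gave 13.99%, 11.03% and 12.4%, and Pot1a 8.59%, 8.40% and 10.5%. A higher level of 1 gene lowers the shares of the others, and all shares depend on the lengths used. Pot1a had its lowest share in the ATRX knockout, yet stood at 15.7, 17.8 and 17.9 CPM per kilobase in the same order of libraries.

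**Figure D4:**
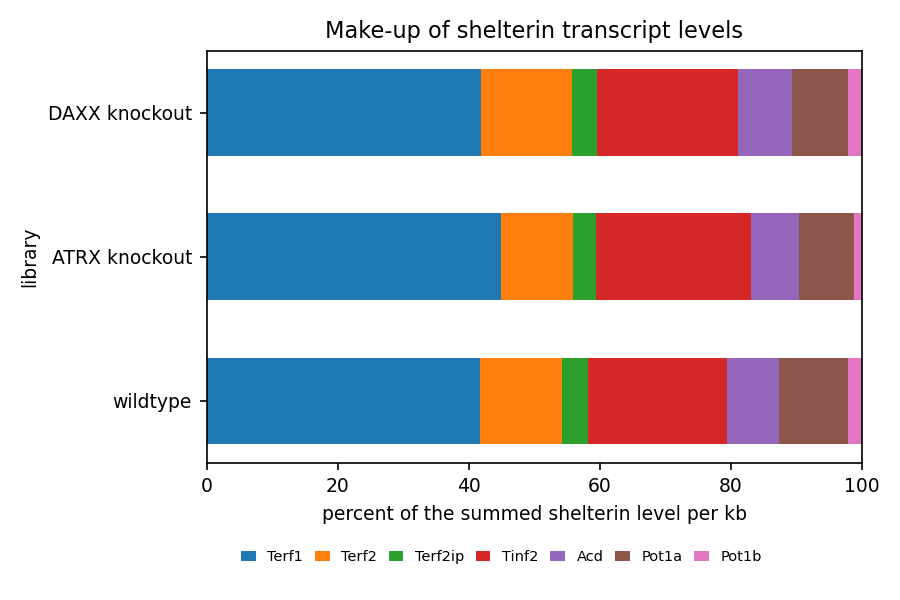
Share of each shelterin gene in the summed level per kilobase of the 7 genes, in percent, in the DAXX knockout (top), the ATRX knockout (middle) and wildtype (bottom). Terf1 takes 41.8% to 44.9% and Pot1b 1.18% to 2.10%.

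Rtel1 encodes a helicase that unwinds telomere loops and G-quadruplex structures so that the repeats can be copied. Its locus is chromosome 2 (plus strand), bases 181319739 to 181356616. It had 1100 reads in DAXX knockout cells, 1109 in ATRX knockout cells and 1284 in wildtype, or 101, 80.1 and 88.5 CPM. The DAXX knockout had the highest CPM and the ATRX knockout the lowest. The log2 fold over wildtype was 0.19 (0.07 to 0.30) in DAXX knockout cells and -0.14 (-0.26 to -0.03) in ATRX knockout cells, and the ATRX knockout over the DAXX knockout gave -0.33 (-0.45 to -0.21). The interval in the DAXX knockout took in no change with total counts, at 0.09 (-0.02 to 0.21). It also did with the most abundant transcript, at 0.20 (-0.10 to 0.49). For the ATRX knockout over wildtype the interval took in no change under 3 alternatives, at -0.10 (-0.23 to 0.03) with protein coding transcripts alone, -0.09 (-0.22 to 0.05) with thinned counts and -0.27 (-0.57 to 0.03) with the most abundant transcript. Of its 7 transcripts, all 7 were lower in the ATRX knockout than in the DAXX knockout, by log2 folds from -0.47 to -0.23. At most 3.46% of the windows of any of them were its own, so they largely share their reads.

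Tert encodes the catalytic subunit of telomerase and lies on chromosome 13 (plus strand), bases 73626911 to 73649843. It had 156 reads in DAXX knockout cells, 296 in ATRX knockout cells and 248 in wildtype, or 14.3, 21.4 and 17.1 CPM. Here the ATRX knockout had the highest CPM and the DAXX knockout the lowest. The log2 fold over wildtype was -0.26 (-0.56 to 0.04) in DAXX knockout cells and 0.32 (0.07 to 0.57) in ATRX knockout cells. Between the knockouts it was 0.58 (0.30 to 0.87), the largest positive value among the 10 genes in any comparison. Of the genes tested 10.3% had a higher fold between the knockouts. With total counts the interval in the DAXX knockout left out no change, at -0.35 (-0.65 to -0.06).

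Dkc1 encodes dyskerin, a pseudouridine synthase that binds telomerase RNA and box H/ACA small nucleolar RNAs. Its locus is the X chromosome (plus strand), bases 75095854 to 75109777, and it had the highest level per length of the 10 genes. It had 3369, 3862 and 3910 reads in the DAXX knockout, the ATRX knockout and wildtype, or 308, 279 and 269 CPM. The DAXX knockout was the highest library. The log2 fold over wildtype was 0.20 (0.13 to 0.26) in DAXX knockout cells and 0.05 (-0.01 to 0.11) in ATRX knockout cells, which became 0.10 (0.04 to 0.17) and -0.02 (-0.08 to 0.05) with total counts. The ATRX knockout over the DAXX knockout gave -0.15 (-0.21 to -0.08). In M21 its exons share 45 bases with Mpp1 on the other strand.

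For Pot1b, Tert and Tinf2, the 3 genes with the largest point estimates of difference, the 250 bases before the annotated start are shown. They come from RefSeq on GRCm38.p6 and are written 5′ to 3′ in the direction of the gene. Capitals mark motifs found on either strand: the telomere repeat unit TTAGGG, the GC box GGGCGG, the E-box CACGTG and the cyclic AMP response element TGACGTCA. These motifs were chosen after the sequences were seen. The windows are chr17:55712625-55712874 on the minus strand for Pot1b, chr13:73626661-73626910 on the plus strand for Tert and chr14:55681818-55682067 on the minus strand for Tinf2.
Pot1b promoter: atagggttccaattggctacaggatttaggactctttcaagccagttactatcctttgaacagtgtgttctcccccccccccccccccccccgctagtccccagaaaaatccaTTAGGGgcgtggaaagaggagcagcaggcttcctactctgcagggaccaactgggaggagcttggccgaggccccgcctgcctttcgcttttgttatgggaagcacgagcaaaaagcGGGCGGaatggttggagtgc
Tert promoter: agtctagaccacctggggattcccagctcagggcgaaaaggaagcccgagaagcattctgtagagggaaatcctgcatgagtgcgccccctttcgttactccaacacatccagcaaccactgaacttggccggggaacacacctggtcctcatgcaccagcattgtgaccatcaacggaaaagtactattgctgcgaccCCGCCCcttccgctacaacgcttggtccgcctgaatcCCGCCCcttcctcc
Tinf2 promoter: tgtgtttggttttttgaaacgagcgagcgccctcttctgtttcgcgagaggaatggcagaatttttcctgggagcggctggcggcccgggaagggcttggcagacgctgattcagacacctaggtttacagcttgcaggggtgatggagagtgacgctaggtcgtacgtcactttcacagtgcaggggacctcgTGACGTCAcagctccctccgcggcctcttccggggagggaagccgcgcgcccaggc
The Pot1b window held 1 telomere repeat unit and 1 GC box, the Tert window 2 GC boxes and the Tinf2 window 1 cyclic AMP response element. Among the 27025 genes with a window, 9.25% held TTAGGG, 32.9% GGGCGG, 6.05% CACGTG and 1.62% TGACGTCA. Of the 10 genes 9 had a window, all but Terf1. Of those 9, 1 held TTAGGG, 4 held GGGCGG, 0 held CACGTG and 1 held TGACGTCA. A match describes these letters and says nothing of binding.

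Other telomere genes were followed in 5 lists, with 51 genes in all, of which 47 had at least 1 CPM in one of the libraries compared. In the DAXX knockout against wildtype 0 of 47 passed the 2-fold rule, where 2.04% of all genes did, and 9 intervals lay above no change and 7 below, where 23.7% and 17.1% of all genes did. In the ATRX knockout against wildtype 0 of 47 rose and 1 fell, where 0.695% and 1.15% of all genes did, and 7 intervals lay above no change and 14 below, beside 25.4% and 21.3% of all genes. In the ATRX knockout against the DAXX knockout 0 of 47 passed, where 1.13% of all genes did, and 4 intervals lay above no change and 14 below, beside 20.7% and 20.9% of all genes. The counts for each list that follow stand against these same shares of all genes, and no list was tested as a set. The gene that fell was Zbtb10, a zinc finger gene whose protein binds variant telomere repeats in human cells. It had 193 reads in DAXX knockout cells, 111 in ATRX knockout cells and 335 in wildtype, and its log2 fold over wildtype was -0.39 (-0.65 to -0.13) in DAXX knockout cells and -1.53 (-1.85 to -1.21) in ATRX knockout cells.

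Among the 12 genes of the telomerase particle and its assembly, 11 were tested. Their median log2 fold over wildtype was 0.07 in DAXX knockout cells and 0.03 in ATRX knockout cells, with 4 intervals above no change and 1 below in the DAXX knockout, and 3 above and 1 below in the ATRX knockout. The AAA+ ATPase gene Ruvbl2 stood at 0.15 (0.09 to 0.21) and 0.24 (0.18 to 0.29), and Nhp2, whose protein binds telomerase RNA beside dyskerin, at -0.09 (-0.17 to -0.02) and -0.23 (-0.31 to -0.16), in the DAXX and the ATRX knockout. Terc, the telomerase RNA, had 3, 2 and 2 reads in the DAXX knockout, the ATRX knockout and wildtype and was not tested. Libraries of polyadenylated RNA do not measure RNA without a poly(A) tail, so these counts give no level of telomerase RNA in the cells.

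The CST complex and DNA polymerase alpha with its primase fill in the strand opposite the overhang. Their 7 genes had a median log2 fold over wildtype of 0.24 in DAXX knockout cells and 0.13 in ATRX knockout cells, with 3 intervals above no change and 0 below in the DAXX knockout, and 3 above and 1 below in the ATRX knockout. Ctc1, the large subunit of CST, stood at -0.02 (-0.11 to 0.07) in DAXX knockout cells and 0.20 (0.12 to 0.28) in ATRX knockout cells. Pola2, a subunit of the polymerase, stood at 0.24 (0.14 to 0.34) and 0.17 (0.07 to 0.27).

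Of 20 genes for end processing and recombination, 2 intervals lay above no change and 4 below in the DAXX knockout, and 1 above and 9 below in the ATRX knockout. Of all genes 23.7% lay above and 17.1% below in the DAXX knockout, and 25.4% above and 21.3% below with ATRX lost. None of the 20 passed the 2-fold rule, and the medians were -0.00345 and -0.11. Rif1, which controls replication timing and the choice of repair pathway, stood at -0.15 (-0.20 to -0.09) in DAXX knockout cells and -0.45 (-0.50 to -0.39) in ATRX knockout cells. Tnks2, a tankyrase that frees TRF1 from telomeres in human cells, stood at 0.07 (0.01 to 0.12) and 0.28 (0.23 to 0.33). Besides Zbtb10, the repeat binders tested numbered 4, and none passed. With Zbtb10 included, 0 intervals lay above no change and 1 below in the DAXX knockout, and 0 above and 2 below in the ATRX knockout, with medians of 0.03 and -0.17. Hmbox1 stood at 0.03 (-0.16 to 0.22) in DAXX knockout cells and -0.18 (-0.36 to 0.01) in ATRX knockout cells, and Nr2c2 at -0.19 (-0.39 to 0.00) and -0.26 (-0.45 to -0.08).

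**Figure D5:**
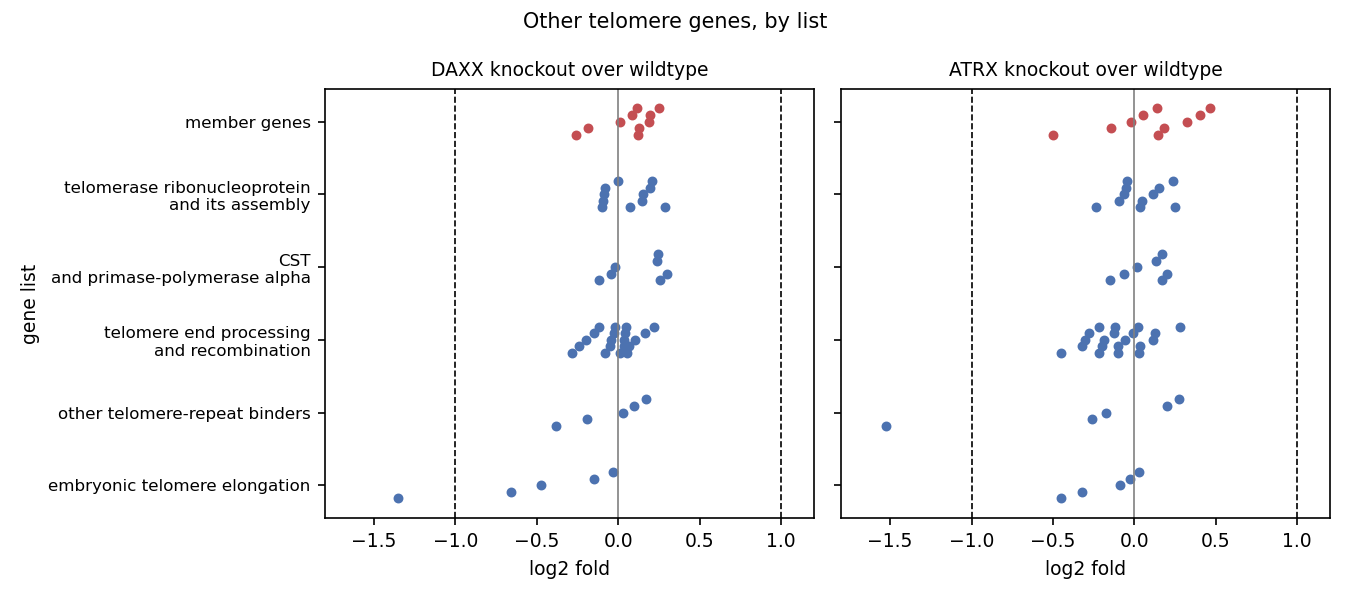
Log2 fold over wildtype of the 10 shelterin and telomerase genes (red) and of the tested genes of 5 other telomere lists (blue), in the DAXX knockout (left) and the ATRX knockout (right). Vertical position within a list only separates the points, and dashed lines mark 2-fold. Zbtb10 is the point at -1.53 in the ATRX knockout and Zscan4f the one at -1.35 in the DAXX knockout.

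The last list holds genes tied to telomere lengthening in early embryos and in rare ESCs that resemble them. Of its 7 genes 5 were tested and none passed the 2-fold rule, with 0 intervals above no change and 2 below in each knockout against wildtype. The medians were -0.46 with DAXX lost and -0.09 with ATRX lost, and Rif1 belongs to this list as well. Zscan4f had 23 reads in DAXX knockout cells, 73 in ATRX knockout cells and 78 in wildtype. Its log2 fold over wildtype was -1.35 (-2.09 to -0.66) in DAXX knockout cells and -0.03 (-0.51 to 0.45) in ATRX knockout cells. In the same order Zscan4c stood at -0.66 (-1.51 to 0.14) and -0.32 (-1.04 to 0.37), and Zscan4d at -0.48 (-1.34 to 0.35) and 0.03 (-0.67 to 0.73), with intervals that take in no change. Zscan4 genes were named after their values were seen. Of the 3, Zscan4f stood farthest from wildtype in the DAXX knockout and Zscan4c in the ATRX knockout. Zscan4 genes are near-identical copies that can exchange reads, so the value of any 1 of them is uncertain. Zfp42, a pluripotency gene also in this list, stood at -0.03 (-0.07 to 0.00) in DAXX knockout cells and -0.09 (-0.12 to -0.05) in ATRX knockout cells.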

How the data were processed

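Polyadenylated RNA from 1 library each of DAXX knockout, ATRX knockout and wildtype ESCs was analysed from the read counts that the authors deposited, which are raw, with a read count for every reference sequence. The tools named are Bowtie 1.1.2 and SAMtools, with GRCm38.p4 as the build, per the submitters' processing notes. Alignment settings, placement of reads with several positions, strand and annotation release are not given in the sources used here. Reference lengths, classed as other values, were taken from the deposited tables.

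Counts of the 48843 transcripts were summed by gene symbol. Libraries were scaled by TMM (edgeR 4.0.16, R 4.3.3), with factors of 0.973 for the DAXX knockout, 0.990 for the ATRX knockout and 1.04 for wildtype. Folds carry exact conditional binomial 95% intervals, levels exact Poisson intervals and shares exact binomial (Clopper-Pearson) intervals. All cover counting error only, and PCR copies are not independent. Genes needed 1 CPM in 1 of the libraries compared and transcripts 20 reads. List medians used a prior count of 1. The rule was tested on simulated Poisson counts with large planted changes, the model of error that the intervals assume. The simulation held no variation between clones, so it does not bear on that variation or on small differences. With 0 residual degrees of freedom no p-value was computed, and TMM assumes that most genes keep their level.

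The genes named were all 10 members, the targeted genes, called genes of the other lists and the 2 of each list with the highest level. Zscan4c, Zscan4d, Zscan4f, Terc and the overlapping genes Gmpr2, Rltpr and Mpp1 were added outside this rule after values were seen. Members and lists were chosen with earlier results of these data known. Alternatives were scaling by total counts or by DESeq2 1.42.0 size factors, other filters, the most abundant or only the coding transcripts, thinned counts, a 1.5-fold limit and a prior count of 0.5. Positions and overlaps come from GENCODE M21 (GRCm38), which may not be the release the authors used.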

Additional observations from a re-analysis of the deposited data

How the results depend on the processing

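None of the 10 genes, and none of their 25 transcripts, passed the rule under any alternative run. Of 150 member folds recomputed, 146 stayed inside their own interval. The 4 outside it were those of Dkc1 over wildtype in both knockouts with total counts, and of Rtel1 in the ATRX knockout over wildtype and over the DAXX knockout with the most abundant transcript. A change of sign was seen in 4, each with an interval that takes in no change, for Terf1, Terf2ip and Dkc1. Another 11 intervals changed between leaving out no change and taking it in, and none moved from above it to below it or the reverse. With total counts the median of all genes over wildtype moved to -0.08 with DAXX lost and -0.05 with ATRX lost, from 0.02 for both, and member intervals above and below no change numbered 2 and 2 with DAXX lost, 3 and 2 with ATRX lost. With the most abundant transcript they numbered 1 and 0 with DAXX lost, from 3 and 1, and 3 and 1 with ATRX lost, from 3 and 2. The median of the 10 genes over wildtype was 0.02 with DAXX lost and 0.07 with ATRX lost with total counts, and 0.03 for ATRX over DAXX knockout with thinned counts, from 0.12, 0.14 and 0.10. For all genes, the 1.5-fold limit raised the calls to 596 (DAXX knockout over wildtype), 700 (ATRX knockout over wildtype) and 518 (ATRX over DAXX knockout), from 268, 244 and 147, and those for single transcripts to 725, 935 and 609, from 327, 336 and 169. A filter of 5 CPM left 162 calls in the DAXX knockout, since it tests fewer genes. No paired analysis was possible because each genotype had 1 library, and no replicate could be left out. At 121 to 179 reads, the depth of Pot1b leaves an interval over 0.6 wide on the log2 scale. The alternatives for single transcripts were chosen after the data were seen.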

Other observations

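The tables also hold a consensus of the telomere repeat, 144 bases long, among their repeat sequences. The DAXX knockout, the ATRX knockout and wildtype libraries had 0, 0 and 0 reads of it, which allows up to 0.265, 0.213 and 0.213 reads in every 1000000 aligned (3 reads per library). Telomere repeat-containing RNA carries poly(A) tails only in part, and the placement of reads that match a tandem repeat at many positions is not known here. The RNA was not detectable at this depth as counted.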
